A study of Medicago truncatula with 21 samples.

Results

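Of 44473 transcript identifiers measured in seeds of Medicago truncatula, 50 were well above wild type in mature seeds of both abi4 mutant lines although wild-type seeds also held them. They were chosen by their mature values. The mean in R108, the wild-type line, had to reach 20 normalized counts. The abi4-1 mean and the abi4-2 mean each had to be at least 4 times that mean, with each mutant library above each R108 library, and plastid and mitochondrial transcripts were left out. Among 16086 nuclear identifiers with an R108 mature mean of 20 or more, 0.311% met this rule. The mature values below therefore describe the choice and carry no test, whereas the libraries at 13 and 24 days after pollination (DAP) played no part in it.

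Medicago truncatula is a small legume used as a model for seed biology. The groups were abi4-1 seeds (line NF19813, in the R108 background) at 13 DAP, 24 DAP and maturity, abi4-2 seeds (line NF2525, in the R108 background) at maturity, and R108 seeds at the same 3 stages, with 3 libraries in each of the 7 groups. Per the series title, both mutants carry an insertion of the retrotransposon Tnt1, and each allele is represented by 1 line, so other differences between a line and R108 cannot be told apart from the insertion in ABI4. The labels give whole seeds as the tissue and no treatment, and the design text describes replicates as seeds of different plants, but for mutant lines of another gene. Should the libraries not come from separate plants, the p-values reflect only how these libraries vary, which may be technical. In whole seeds, fewer cells of a type and less RNA per cell cannot be told apart.

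ABI4 is known from Arabidopsis as an AP2/ERF transcription factor that acts in the response to abscisic acid and sugars. Seed development moves from embryo growth through reserve filling to a late phase in which seeds lose chlorophyll, acquire desiccation tolerance and dry. A dry seed keeps a store of messenger RNA, part of it left from filling and part of it made late in maturation, and many transcripts of the growing seed are gone by then.

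The values are on a read-count scale, and library totals lay between 18365151 and 24032451 normalized counts. After the authors' scaling the libraries within a stage lay at the same level, and that level differed between stages. Genotypes are therefore compared within a stage, and levels across stages are only described. The identifiers are not paired with gene names in the files, and 0 of the 50 matched the reference gene table. The tissue markers, the ABI4 transcript and the functions of the members were not examined, and 4 members are named by identifier. They are the pair with the largest rises and the pair with the largest falls among members called at 24 DAP.

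In mature seeds the members' group means ran from 98.5 to 15456 normalized counts in abi4-1, from 98.7 to 8176 in abi4-2 and from 21.04 to 865 in R108, with medians of 264, 302 and 44.1. Both alleles are set against the same 3 R108 libraries. The ratio to R108 ran from 4.15 to 23.3 in abi4-1, with a median of 5.06, and from 4.15 to 24.6 in abi4-2, with a median of 5.98. In both alleles the ratio was at least 6 for 14 members and at least 10 for 5. Most members were modest transcripts in R108, where 27 had a mature mean under 50 and 38 under 100. The 50 transcripts together made up 0.228 ± 0.0585% of the library total in mature abi4-1, 0.185 ± 0.0276% in mature abi4-2 and 0.0235 ± 0.00380% in mature R108 (SD, n = 3).

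At the edge of the rule, the member closest to the bound had ratios of 8.28 in abi4-1 and 4.15 in abi4-2. The identifier closest to it on the other side had 3.97 in abi4-1 and 4.95 in abi4-2. No eligible identifier reached 4 in both alleles with overlapping libraries, since that count was 0. The size of the set follows the bounds: with a bound of 3 in place of 4 the rule finds 103 transcripts, and with a bound of 6 it finds 14.

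The most abundant member in mature mutant seeds lies on chromosome 4. It stood at 12341, 22556 and 11470.2 normalized counts in abi4-1, 9766, 10218 and 4544 in abi4-2, and 810, 913 and 870 in R108. Its mutant libraries varied widely among themselves but each lay several-fold above R108. At 13 DAP it was a rare transcript, at 31.8 ± 6.99 in abi4-1 and 31.3 ± 21.4 in R108 (SD, n = 3). At 24 DAP it was already far more abundant, at 1658 ± 64.0 in abi4-1 and 1232 ± 244 in R108, and the log2 change was 0.45 ± 0.13 (SE) with an adjusted p of 0.0419 in limma. That call at 24 DAP rested on nearly every library, since it held in 1 of the 6 fits that each left a library out, with adjusted p up to 0.120, and it was lost in a fit of all 21 libraries (adjusted p = 0.438).

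The largest ratio in abi4-1 belonged to a chromosome 8 transcript of the growing seed. In mature seeds it was at 439, 703 and 557 normalized counts in abi4-1, 226, 271 and 373 in abi4-2, and 23.6, 22.1 and 27.1 in R108. The 3 groups did not overlap. Before maturity it was abundant in both genotypes, with means of 5078 ± 831 for abi4-1 and 3718 ± 93.4 for R108 at 13 DAP, and of 4529 ± 948 for abi4-1 and 3676 ± 780 for R108 at 24 DAP (SD, n = 3). Neither stage passed the test, with log2 changes of 0.44 ± 0.12 at 13 DAP and 0.30 ± 0.17 at 24 DAP (SE, limma adjusted p = 0.136 and 0.268). Mature R108 seeds held little of this transcript, and mature abi4 seeds held an intermediate amount.

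**Figure D1:**
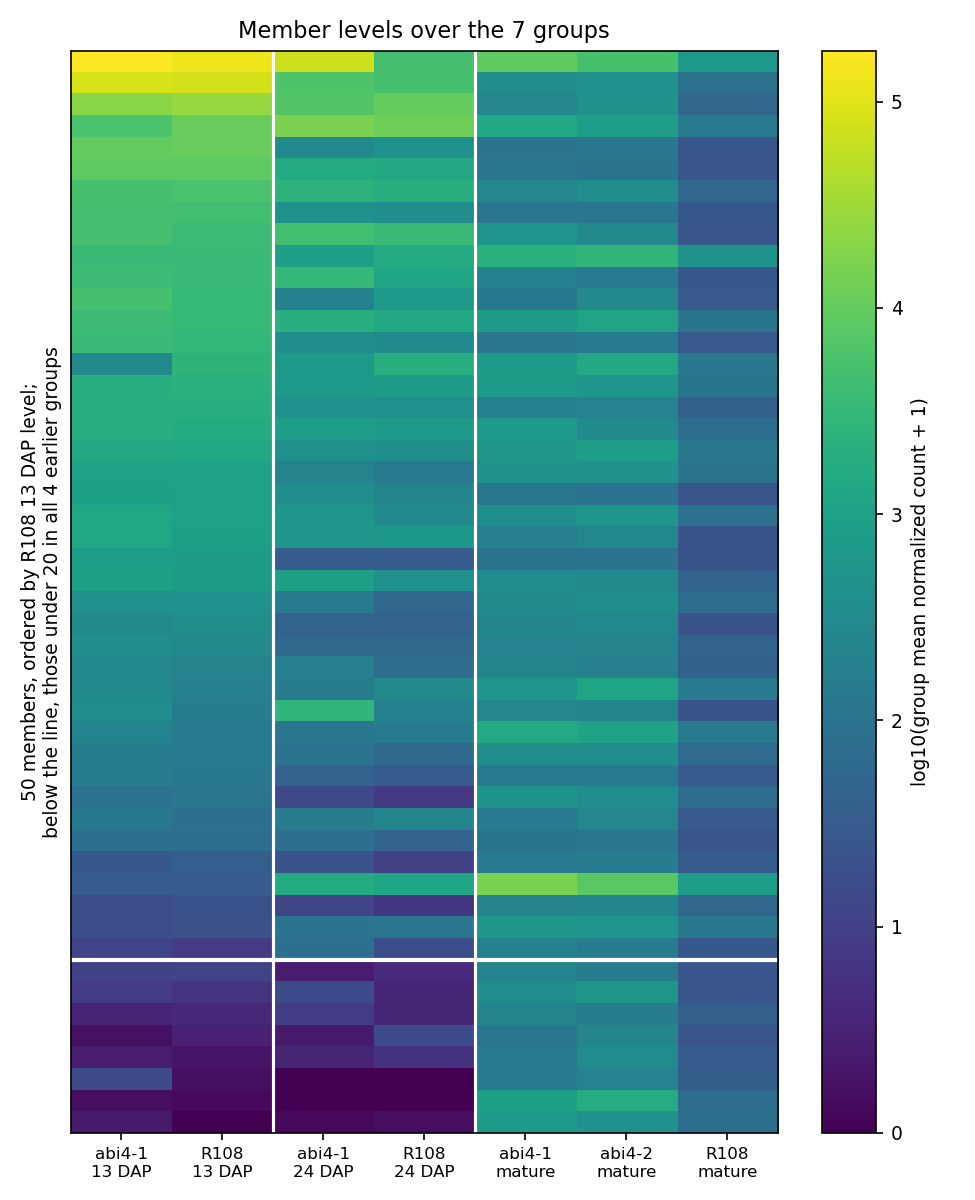
Group means of the 50 members, as log10(normalized count + 1), in the 7 groups, 1 row per member ordered by the R108 level at 13 DAP, with the 8 members under 20 in all 4 earlier groups below the horizontal line. Vertical lines separate 13 DAP, 24 DAP and mature seeds, which the authors scaled separately. The bound of 20 was applied to the values as deposited. Mature R108 is the darkest of the 3 mature columns by construction, and most rows above the line are bright in both genotypes before maturity.

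Levels before maturity varied widely among the members. As deposited, 42 of the 50 (84.0%) reached a mean of 20 in at least 1 of the 4 groups at 13 and 24 DAP, against 92.4% of the eligible identifiers. The median levels of the 42 were 994 in abi4-1 and 996 in R108 at 13 DAP and 415 in abi4-1 and 352 in R108 at 24 DAP. In R108 the mature mean was below the 24 DAP mean for 40 members when all 21 libraries were put on a common scale by their median ratios, for 35 as deposited and for 34 with libraries scaled to their totals. By at least 4-fold, 26 members (52.0%) were lower in mature than in 24 DAP R108 seeds on the common scale and 22 on either of the other scales. Over the 16086 eligible identifiers, 10.8% were lower by that much on the common scale and 4.90% as deposited. The mature R108 values are part of the rule, so these counts describe the members. In abi4-1 the counts of members at least 4-fold lower in mature seeds were 17 on the common scale and 9 as deposited, a difference from R108 that the rule itself helps to fix. Among the eligible identifiers 10.4% were lower by that much in abi4-1 on the common scale and 4.51% as deposited. The mature mean was below the 24 DAP mean in R108 and above it in abi4-1 for 14 members as deposited and for 14 on the common scale, but only 9 members met this on both, and 8 also with libraries scaled to their totals. The share of eligible identifiers with this pattern was not counted, and the rule helps to fix these counts as well. No test was made across stages, since stage and scaling coincide.

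The stage at which R108 held most of each transcript depended on the scale. As deposited, the highest R108 mean was at 13 DAP for 33 members, at 24 DAP for 6 and in mature seeds for 11. On the common scale these counts were 20, 21 and 9. Of the eligible identifiers, 48.1% were highest in R108 at 13 DAP and 2.98% at 24 DAP as deposited. On the common scale these shares were 28.8% and 17.7%. The number peaking in mature R108 was small on both scales, at 11 or 9 of 50, whereas 48.9% of the eligible identifiers as deposited and 53.6% on the common scale were highest in mature R108. The rule used the mature R108 values, so this contrast is partly fixed by it and only describes the members.

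A smaller set of members was scarce before maturity. In 8 of the 50 (16.0%) the mean as deposited stayed under 20 normalized counts in abi4-1 and R108 at both 13 and 24 DAP. Their mature means ran from 116 to 962 in abi4-1, from 160 to 1754 in abi4-2 and from 22.7 to 77.9 in R108. Of the eligible identifiers 7.63% were under 20 in the same 4 groups. The 8 differed in how low they were. MtrunA17_Chr6g0462311, a member of this set described further below, averaged 14.4 in R108 at 24 DAP and 22.7 in mature R108 as deposited. On the common scale these means were 25.9 and 20.3, so the order turned. A chromosome 4 member of the set averaged 14.1 in abi4-1 at 24 DAP as deposited and 25.3 on the common scale. The set under 20 thus depends on the scale, and it was not counted on the common scale. A chromosome 8 transcript among the 8 was at 1306, 1121 and 458 normalized counts in mature abi4-1, 2007, 2151 and 1103 in mature abi4-2, and 59.5, 91.8 and 63.6 in mature R108. All 6 libraries at 24 DAP listed it at 0, and its highest value at 13 DAP was 1.87. A chromosome 5 transcript was at 607, 794 and 541 in mature abi4-1, 409, 587 and 349 in mature abi4-2, and 74.2, 69.3 and 90.1 in mature R108. At 24 DAP its highest value in any library was 1.72. A chromosome 1 member of this kind was detected mainly in 1 early library, at 43.9 in abi4-1 replicate 2 at 13 DAP, with 0.94 or less in the other abi4-1 libraries of that stage.

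Whether the excess was already present at 24 DAP was asked in abi4-1 and R108 libraries that the rule did not use. Of the 50 members 44 were tested at 24 DAP, and 16 were higher and 6 lower in abi4-1 (limma, Benjamini-Hochberg adjusted p under 0.05 over 19508 transcripts). Over all transcripts tested, 9.64% were higher and 6.40% lower. These include transcripts that were not eligible for the rule. Of the 16086 eligible identifiers, not all of them tested at 24 DAP, 998 were called higher and 937 lower. The count of higher members was 10 without abi4-1 replicate 2 and 10 without abi4-1 replicate 3, with 5 and 6 lower, and with libraries scaled to their totals it was 15 higher and 4 lower. Calls over all transcripts moved too. The main fit called 1881 higher and 1249 lower. These fits called 1128, 1105 and 1839 higher and 797, 771 and 678 lower, in that order. The replicate numbers were taken to pair the libraries at 24 DAP, but the main fit did not use them. With the number as a block 19 members were higher and 7 lower, where 2305 and 1793 of all transcripts were called. In the main fit another 22 members did not pass and 6 were too low to test. The median log2 change of the tested members was 0.34, against -0.011 over all transcripts tested. Of these members 3 reached the filter through abi4-1 libraries alone and 1 through R108 libraries alone, and such members had to differ. With a filter on the mean of the 6 libraries, 41 members were tested, 15 were higher and 5 lower.

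The size of the difference at 24 DAP varied among the members. Of the 40 that reached a mean of 20 in abi4-1 or R108 at 24 DAP, 13 had an abi4-1 mean at least 1.5 times the R108 mean, 8 at least 2 times and 3 at least 4 times. Of the 17891 transcripts that reached this level, 9.66%, 4.95% and 1.57% did so. The members' median ratio was 1.24 and the range 0.315 to 14.4. In the same count 6 members were lower in abi4-1 by at least 1.5-fold, 2 by at least 2-fold and 0 by at least 4-fold, against 6.39%, 2.20% and 0.665% of the transcripts. All abi4-1 libraries lay above all R108 libraries for 18 of the 44 tested members and below them for 9, where 17.6% and 15.9% of all transcripts tested did so. The 18 include the 3 members that reached the filter through abi4-1 libraries alone, and the 9 include the 1 that reached it through R108 alone. For these the filter itself fixed the order.

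MtrunA17_Chr4g0051941 had the largest rise. At 24 DAP it was at 63437, 75275 and 74109 normalized counts in abi4-1, against 4855, 6974 and 3391 in R108. The groups were far apart, and the log2 change of 3.86 ± 0.21 (SE) had an adjusted p of 1.78e-06 in limma and kept its call in each alternative fit. At 13 DAP it was the most abundant member in both genotypes, at 144353, 175542 and 208826 in abi4-1 and 125858, 118604 and 151168 in R108. Those ranges overlapped, and the change of 0.41 ± 0.22 was not called (adjusted p = 0.493). In mature seeds it stood at 8987, 9223 and 8297 in abi4-1, 5118, 4906 and 5360 in abi4-2, and 244, 1156 and 684 in R108. The 24 DAP excess was thus of a transcript whose level in R108 at 24 DAP was a small part of its level at 13 DAP, at 5073 against 131877 as deposited and 9115 against 84042 on the common scale.

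This single transcript carried most of the members' summed excess at 24 DAP. The 50 transcripts made up 0.651 ± 0.0270% of the library total in abi4-1 at 24 DAP and 0.267 ± 0.0175% in R108 (SD, n = 3). Without MtrunA17_Chr4g0051941 the shares were 0.292 ± 0.0235% in abi4-1 and 0.242 ± 0.0252% in R108, which lay much closer together. At 13 DAP the shares were 1.68 ± 0.145% in abi4-1 and 1.39 ± 0.0618% in R108, and without it 0.860 ± 0.00784% in abi4-1 and 0.817 ± 0.0221% in R108. No test was made on these sums over chosen members.

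MtrunA17_Chr8g0352561 behaved differently at 13 DAP. At 24 DAP it was at 2871, 2502 and 3288 normalized counts in abi4-1, against 211, 200 and 189 in R108. The R108 libraries were nearly equal and each was far below abi4-1, and the log2 change was 3.84 ± 0.11 (SE) with an adjusted p of 2.72e-08 in limma. At 13 DAP it was at 233, 407 and 460 in abi4-1 and 203, 105 and 167 in R108. Each abi4-1 library was the higher one, but the change of 1.20 ± 0.30 was not called (adjusted p = 0.0964). In mature seeds it was at 222, 420.1 and 150.4 in abi4-1, 311, 291 and 172 in abi4-2, and 8.26, 41.8 and 14.2 in R108. In abi4-1 its level at 24 DAP exceeded that at 13 DAP several-fold on either scale. In R108 the means at 13 and 24 DAP were 158 and 199.9 as deposited, but 100.7 and 360 on the common scale.

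**Figure D2:**
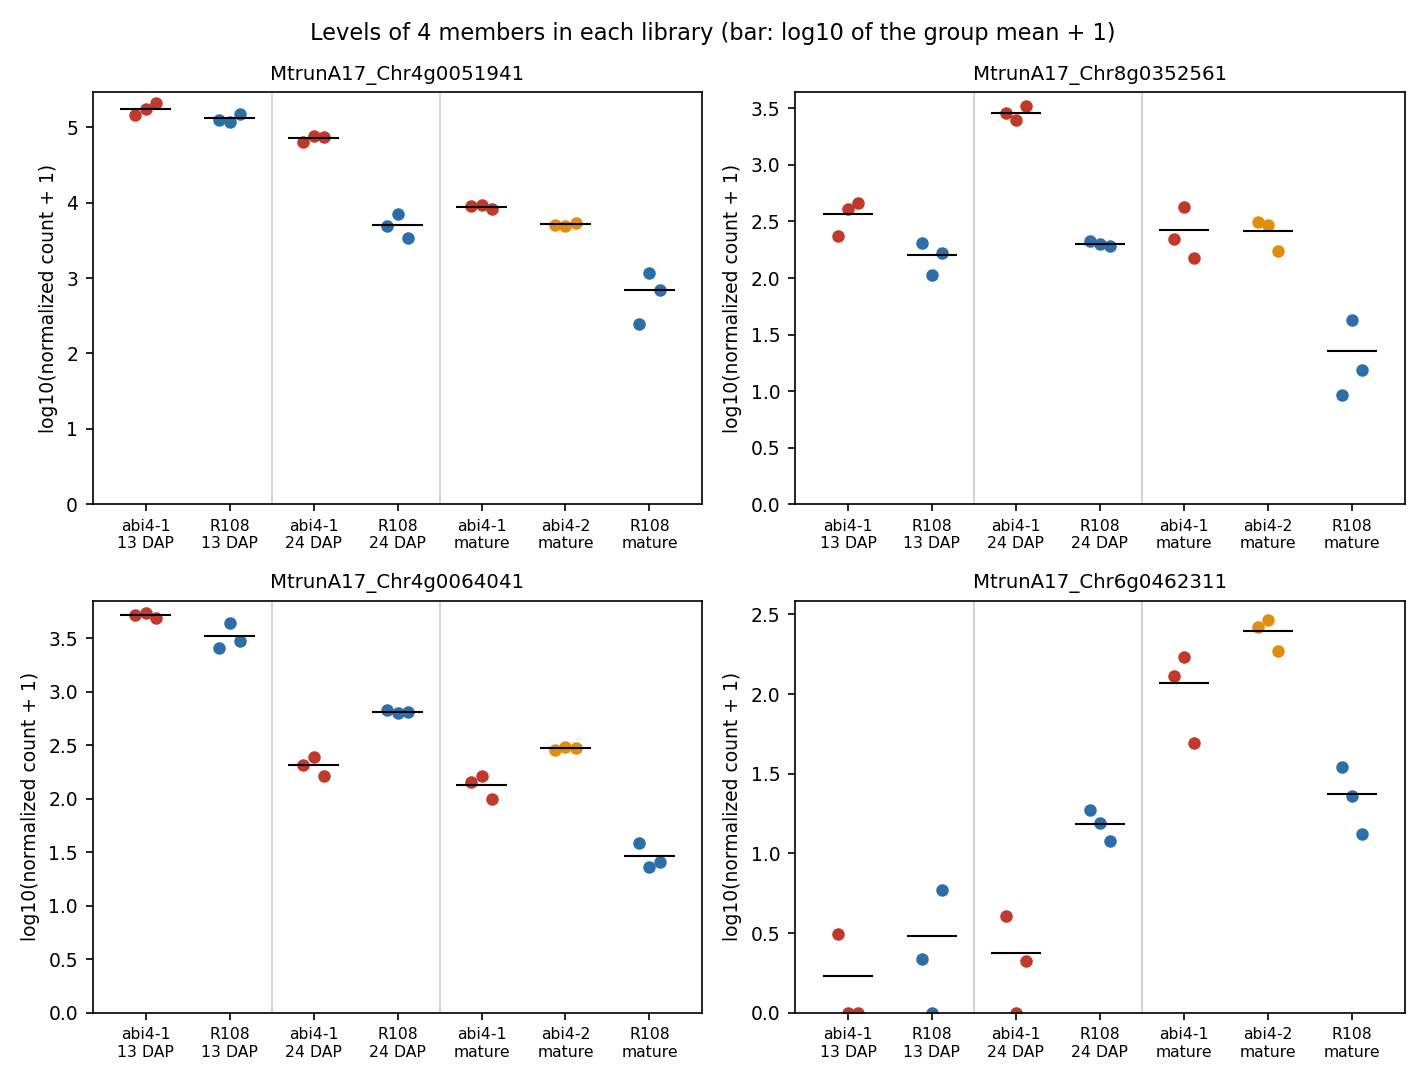
Values of the 4 named members in each library, as log10(normalized count + 1), by group, with the bar at the group mean. The upper panels show the largest rises at 24 DAP, where abi4-1 libraries lie far above R108, and the lower panels the largest falls, where abi4-1 lies below R108 at 24 DAP and above it in mature seeds.

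The other 14 members called higher at 24 DAP had smaller changes, down to 0.35. A chromosome 5 transcript rose by 2.17 ± 0.23 (SE, limma adjusted p = 0.000131), at 81.6, 63.5 and 94.9 normalized counts in abi4-1 against 18.3, 14.3 and 17.8 in R108. A chromosome 1 transcript rose by 1.51 ± 0.15 (limma adjusted p = 8.19e-05), at 146, 165 and 144 in abi4-1 against 56.4, 54.0 and 47.5 in R108. Both pairs of groups were apart, and both calls held without each library in turn. Neither was called at 13 DAP, where the chromosome 1 transcript averaged 451 ± 127 in abi4-1 and 447 ± 116 in R108 (SD, n = 3). Calls of some others among the 14 were less firm. The member at 0.35, on chromosome 4, kept its call in 1 of the 6 fits that left a library out. It lost it with libraries scaled to their totals and in a fit of all 21 libraries. A chromosome 3 member at 0.73 kept its call in 2 of 6 such leave-out fits, and a different chromosome 1 member at 0.42 in 3 of 6.

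The 6 falls at 24 DAP ran opposite to the direction that the rule fixed in mature seeds. MtrunA17_Chr4g0064041 was at 206, 246 and 162 normalized counts in abi4-1 at 24 DAP, against 675, 634 and 639 in R108. The groups were apart and the log2 change was -1.68 ± 0.14 (SE, limma adjusted p = 3.51e-05). At 13 DAP it was at 5246, 5403 and 4911 in abi4-1 and 2532, 4372 and 2944 in R108, where abi4-1 was higher in each library but the change of 0.70 ± 0.18 was not called (adjusted p = 0.103). In mature seeds it was at 141, 161 and 97.6 in abi4-1, 285, 301 and 297 in abi4-2, and 37.4, 21.9 and 24.7 in R108. So in abi4-1 it lay above, below and again above R108 over the 3 stages, and of the early stages 24 DAP passed the test.

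MtrunA17_Chr6g0462311 was a low transcript before maturity. At 24 DAP it was at 3.04, 0 and 1.11 normalized counts in abi4-1, against 17.6, 14.5 and 11.0 in R108, and the log2 change was -2.89 ± 0.62 (SE) with an adjusted p of 0.0105 in limma. It reached the filter through R108 libraries alone, so it had to differ. At 13 DAP its highest value was 4.89 and it was not tested. In mature seeds it stood at 129, 170 and 48.7 in abi4-1, 264, 290 and 184 in abi4-2, and 34.1, 21.9 and 12.2 in R108.

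A further chromosome 4 transcript was lower in abi4-1 at both early stages. It was at 253, 432 and 271 normalized counts in abi4-1 against 3282, 1743 and 2744 in R108 at 13 DAP, and at 741, 483 and 828 in abi4-1 against 2692, 1696 and 1652 in R108 at 24 DAP. The groups did not overlap at either stage, with log2 changes of -3.01 ± 0.26 at 13 DAP and -1.56 ± 0.22 at 24 DAP (SE, limma adjusted p = 0.000832 and 0.000855). In mature seeds the order was the opposite, at 856, 913 and 593 in abi4-1, 1413, 1909 and 980 in abi4-2, and 132, 129 and 117 in R108. In abi4-1 it averaged 787 ± 171 in mature seeds and 684 ± 180 at 24 DAP as deposited (SD, n = 3), but the order turned on the common scale, where the mature mean was lower by 0.80 on the log2 scale. In R108 the mature mean was the lower one on both scales.

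**Figure D3:**
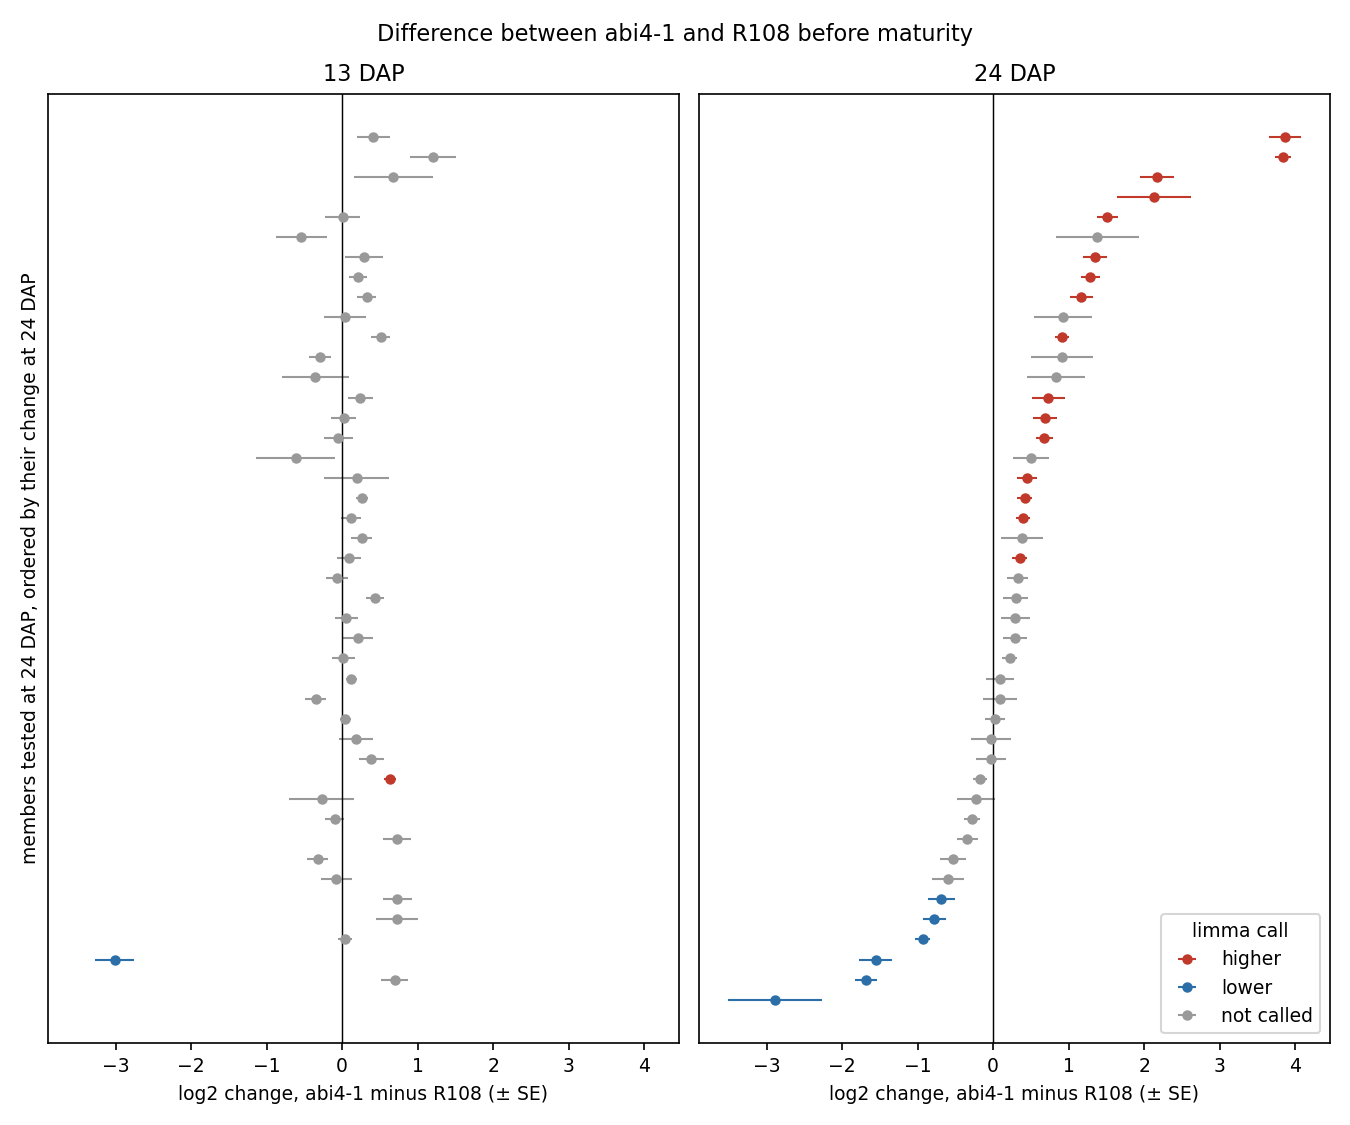
Log2 change between abi4-1 and R108, with its standard error, for the 44 members tested at 24 DAP, at 13 DAP on the left and 24 DAP on the right, ordered by the change at 24 DAP. Members not tested at 13 DAP have no point there. Points at 13 DAP gather near 0 with 1 member far below, while at 24 DAP 16 were called higher and 6 lower.

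At 13 DAP few members differed between the genotypes. Of 43 tested, 1 was higher and 1 lower in abi4-1, where 1.26% and 1.20% of 22499 transcripts were called. The replicate numbers were taken to pair the libraries at this stage too, and with the number as a block 3 were higher and 1 lower. With libraries scaled to their totals the counts were also 3 and 1. Without abi4-1 replicate 1 they were 4 and 1, and without R108 replicate 2 they were 2 and 1. Over all transcripts the main fit called 283 higher and 271 lower. The block called 461 and 373, scaling to totals 414 and 249, and the fit without R108 replicate 2 called 521 and 400. Without abi4-1 replicate 1 fewer transcripts were called in each direction than in the main fit, although more members were called higher. The median log2 change of the tested members was 0.12, against -0.0088 over all transcripts tested, and abi4-1 libraries all lay above R108 for 12 of the 43 and all below for 4, against 9.60% and 9.23% of all transcripts.

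The member called higher at 13 DAP, on chromosome 3, was not called at 24 DAP. It was at 1346, 1426 and 1397 normalized counts in abi4-1 against 892, 934 and 861 in R108 at 13 DAP, and the log2 change was 0.63 ± 0.078 (SE) with an adjusted p of 0.00442 in limma. At 24 DAP it was at 541, 542 and 548 in abi4-1 against 629, 552 and 665 in R108, a change of -0.17 ± 0.096 (adjusted p = 0.273). In mature seeds it was at 192, 252 and 120 in abi4-1, 299, 331 and 219 in abi4-2, and 18.8, 25.0 and 19.3 in R108. No member was called higher at both early stages, a count of 0, and 1 was called lower at both. With 1 member called higher and 1 lower at 13 DAP, neither count could exceed 1. The matching share over all transcripts was not counted. At an unadjusted p under 0.05 in limma, in either direction, the tested members numbered 30 of 44 at 24 DAP and 13 of 43 at 13 DAP, where 28.8% and 13.4% of all transcripts tested passed.

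Whether the difference between abi4-1 and R108 itself changed from 13 to 24 DAP was tested as an interaction over 12 libraries. Of 45 members tested, it was more positive at 24 DAP for 6 and more negative for 6, where 3.87% and 2.37% of 23225 transcripts were called (limma, adjusted p under 0.05). Without R108 replicate 2 at 13 DAP, 10 were more positive and 6 more negative. Over all transcripts the calls rose as well in that fit, from 898 and 550 to 1126 and 675. An unadjusted p under 0.05 in limma was reached by 22 of the 45 members and 19.5% of all transcripts tested. For MtrunA17_Chr4g0051941 the difference of the log2 changes was 3.45 ± 0.38 and for MtrunA17_Chr8g0352561 2.64 ± 0.35 (SE, adjusted p = 0.000250 and 0.000870). For MtrunA17_Chr4g0064041 it was -2.38 ± 0.25 (adjusted p = 0.000163). Each of these kept its call without each library in turn. For the chromosome 3 member called at 13 DAP it was -0.81 ± 0.12 (adjusted p = 0.00135). In a fit of all 21 libraries this member lost both its interaction call (adjusted p = 0.0694) and its call at 13 DAP (adjusted p = 0.0712). The chromosome 4 member lower at both early stages was 1.46 ± 0.39 less negative at 24 DAP (adjusted p = 0.0452). That call was lost with the replicate number as a block, a pseudocount of 0.1, no filter on low values or libraries scaled to their totals. It was also lost in 8 of the 12 fits that left a library out, with adjusted p up to 0.111.

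The alleles were also set against each other in mature seeds. The abi4-1 mean was 0.429 to 2.00 times the abi4-2 mean, with a median of 0.935, and the libraries of the alleles overlapped for 34 of the 50 (68.0%), close to the 63.7% of the eligible identifiers. All abi4-1 libraries lay above all abi4-2 libraries for 7 and below them for 9, where 18.6% and 17.7% of the eligible identifiers did so. The rule required a rise in both alleles, so these values are a description. For MtrunA17_Chr4g0064041 the abi4-2 libraries ran from 285 to 301 and the abi4-1 libraries from 97.6 to 161.

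Members that fell at 24 DAP were also lower in mature abi4-1 than in mature abi4-2. All 6 members called lower in abi4-1 at 24 DAP were lower in mature abi4-1 than in mature abi4-2 with no overlap, with ratios of 0.452 to 0.797. Not all 6 calls at 24 DAP were firm. MtrunA17_Chr6g0462311 reached the filter through R108 alone, so it had to differ. A chromosome 1 member kept its call in 2 of the 6 fits that left a library out (limma adjusted p up to 0.0961). It lost the call with libraries scaled to their totals and in a fit of all 21 libraries. Of the 16 called higher at 24 DAP, 3 were above abi4-2, 13 overlapped and 0 were below, with ratios from 0.670 to 2.00. Among all eligible transcripts called lower at 24 DAP, 21.5% lay below abi4-2 and 19.2% above, and among those called higher, 26.3% lay above and 16.8% below. The mature values of both alleles are part of the rule, so no test was made. No abi4-2 seeds at 24 DAP are among these samples.

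**Figure D4:**
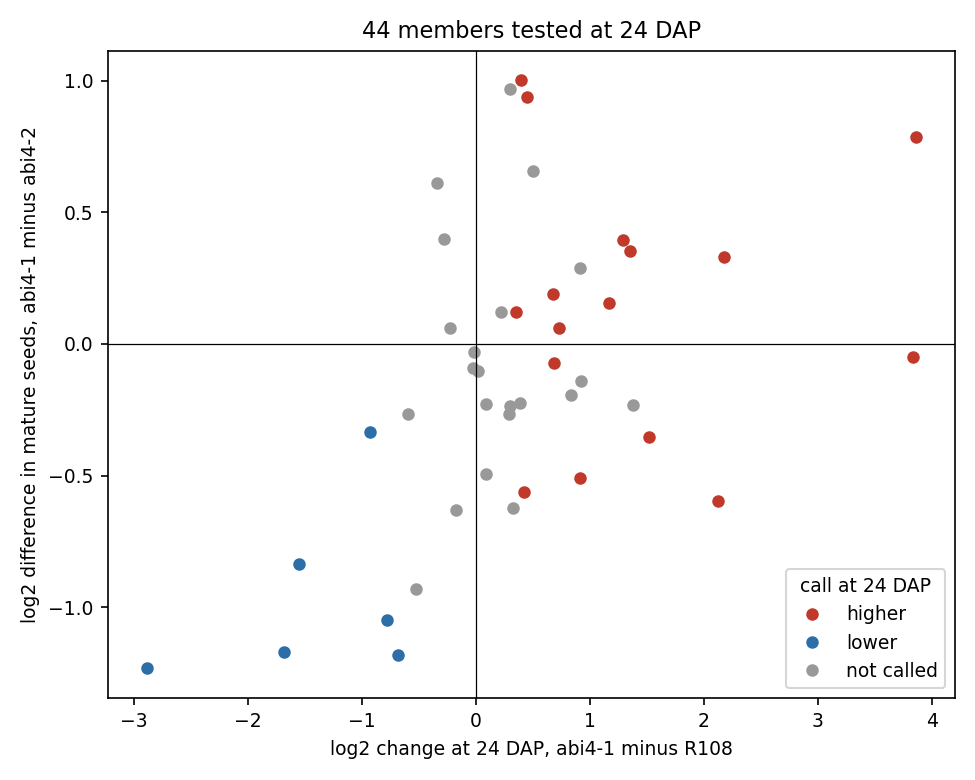
Log2 change at 24 DAP between abi4-1 and R108 (horizontal axis) and log2 difference in mature seeds between abi4-1 and abi4-2 (vertical axis) for the 44 members tested at 24 DAP, coloured by the call at 24 DAP. The 6 members called lower at 24 DAP all lie below 0 on the vertical axis, and the 16 called higher lie on both sides of it.

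The members were spread over the genome. Chromosomes 1 and 8 held 10 each, which is 20.0% of the members against 15.2% and 12.5% of the eligible identifiers. Chromosome 4 held 18.0% against 16.8%, chromosome 5 held 14.0% against 11.01%, and chromosome 6 held 8.0% against 6.04%. The other chromosomes held smaller shares of the members than of the eligible identifiers, with 8.0% against 14.3% on chromosome 3, 6.0% against 11.5% on chromosome 2 and 4.0% against 12.4% on chromosome 7, and 1 member was unplaced. No test was made on these shares. By their identifiers 3 pairs of members were next to each other in the full table, and 1 further pair was adjacent among eligible identifiers. The adjacent pair with the most similar profile lies on chromosome 8, with r = 0.905 over the log2 values of the 21 libraries, while 2 adjacent pairs on chromosome 1 had r = 0.420 and 0.680. Coordinates are not given in the files, and reads shared between neighbouring copies were not examined.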

How the data were processed

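RNA was sequenced from 21 seed libraries. The deposited values carry the name FPKM but are a signal on a read-count scale: the most frequent of the lowest values lay between 0.81 and 1.20 in each library. The step varied somewhat by transcript, with lowest values of 0.75 and 0.80 for members in abi4-1 replicate 1 at 24 DAP, where the most frequent was 0.81. Per the submitters' processing notes Salmon was used. Build, annotation and normalization method: not given in the sources used here. Within a stage the median ratio of each library to the stage's geometric mean was the same, at 1.00 or 1.01, while over all 21 libraries it lay between 1.55 and 1.58 at 13 DAP, between 0.552 and 0.560 at 24 DAP, and between 1.11 and 1.13 in mature seeds.

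The members and the tests were chosen with earlier results of these data known. Differences were tested with limma 3.58.1 in R 4.3.3 (intensity trend) on log2(normalized count + 1), fitted on 6 libraries per stage or 12 for the interaction, over transcripts with at least 10 in at least 3 libraries of the fit. The pseudocount shrinks changes of low transcripts. Adjusted p-values are Benjamini-Hochberg over all transcripts tested. The fits were also run on simulated whole counts with the same relative spread for all transcripts and no replicate pairing. That setting differs from these libraries, so it does not bear on how the fits handle their pairing or uneven spread. No count model was used, because the values are not whole reads. The totals set the precision, and transcripts under 10 were not tested.

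Libraries of abi4-1 and R108 with the same number deviated from their group means together (r between 0.154 and 0.293 at 13 DAP, and between 0.102 and 0.339 at 24 DAP), so the replicate numbers of the titles were taken to pair libraries there. In mature seeds they correlated at -0.0392 to 0.0683 and were not. Named members are the 2 largest rises and 2 largest falls among members called at 24 DAP, since no table names the identifiers. Other members described were chosen after their values were seen. Alternatives changed the pseudocount, filter, scaling, libraries fitted and replicate block.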

Additional observations from a re-analysis of the deposited data

Results flagged for a closer look

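The difference between abi4-1 and R108 changed between 13 and 24 DAP for 12 members by the interaction test in limma, which is why they are listed here. The log2 change at 24 DAP minus that at 13 DAP was 3.45 for MtrunA17_Chr4g0051941 and 2.64 for MtrunA17_Chr8g0352561. It was 1.51 and 0.84 for members on chromosome 1, 1.46 for a member on chromosome 4 and 1.08 for a member on chromosome 5. It was -2.38 for MtrunA17_Chr4g0064041. It was -1.51 and -0.81 for members on chromosome 3, -1.41 for a member on chromosome 1, -1.07 for a member on chromosome 8 and -0.97 for a member on chromosome 2. The chromosome 1 member at 0.84 kept its call in 2 of the 12 fits that left a library out, with adjusted p up to 0.0930, and the chromosome 4 member at 1.46 in 4 of 12, with adjusted p up to 0.111. In a fit of all 21 libraries 4 of the 12 were not called, the chromosome 1 members at 0.84 and -1.41, the chromosome 5 member at 1.08 and the chromosome 3 member at -0.81, with adjusted p from 0.0633 to 0.149.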

How the results depend on the processing

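The number of members was 103 with a bound of 3-fold, 14 with 6-fold, 78 with an R108 mean of at least 10 and 23 with one of at least 50, and leaving out a mature library gave 42 to 57. At 24 DAP the 22 calls stayed between 19 and 26 under the other settings, and leaving out a library gave 15 to 24. At 13 DAP the 2 calls were 4 with column totals and 4 with the replicate block, and leaving out a library gave 2 to 5, with 5 without abi4-1 replicate 1. The interaction gave 9 to 16 calls without single libraries in place of 12. With the replicate block the calls numbered 26 at 24 DAP and 14 in the interaction. Calls over all transcripts also moved with the settings. At 24 DAP they were 2305 higher and 1793 lower with the block, against 1881 and 1249 in the main fit. At 13 DAP they were 461 and 373 with the block and 414 and 249 with column totals, against 283 and 271. Without abi4-1 replicate 1 at 13 DAP they were below the main fit in each direction. In the interaction they were 1202 and 886 with the block, against 898 and 550. Of the named members, MtrunA17_Chr4g0051941, MtrunA17_Chr8g0352561 and MtrunA17_Chr4g0064041 kept direction and call at 24 DAP in all 8 other settings and the 6 fits that left a library out. MtrunA17_Chr6g0462311 was not tested with column totals, the filter on a mean or without any R108 library, so its call was not checked there. The filter on the mean of all libraries was chosen after seeing the data. Depth limits the 8 members under 20 as deposited before maturity.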
